A study of Mus musculus with 13 samples.

Results

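The unfolded protein response and the integrated stress response were followed through 33 transcripts of mouse liver. They were taken by name: 15 genes of protein folding in the endoplasmic reticulum (ER), 6 of ER-associated degradation, 4 sensors and their transcription factors, and 8 of the arm that runs through ATF4 and CHOP. The folding and degradation genes together make the 21 genes of what is called here the ATF6/XBP1 arm. All 33 had a probe on the array, out of 20392 genes tested, and every one of these probes was well above background and below saturation on all 13 arrays. Total liver RNA came from male mice on a C57BL/6 background, 1 mouse per array. There were 3 TEKI mice, whose SIRT1 carries glutamate in place of threonine 522, 5 TAKI mice with alanine there, and 5 WT mice. SIRT1 is an NAD-dependent deacetylase of energy metabolism, and the series asks what the phosphorylation state of this threonine does in metabolism. Alanine cannot be phosphorylated and glutamate carries a negative charge. Mice of all 3 genotypes, WT included, had eaten a fat-rich western-type diet for 5 months, so these data hold no lean or chow-fed liver, no female and no liver treated with an inducer of ER stress.

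The ER folds secreted and membrane proteins, and hepatocytes, which secrete most plasma proteins, are rich in it. When unfolded protein accumulates, the membrane protein IRE1 (Ern1) splices Xbp1 RNA, ATF6 is cut at the Golgi to release a transcription factor, and PERK (Eif2ak3) phosphorylates the initiation factor eIF2alpha. ATF6 and XBP1 induce chaperones, disulfide isomerases and the degradation machinery. Phosphorylated eIF2alpha slows translation in general but lets ATF4 be made, and ATF4 induces CHOP (Ddit3), amino acid enzymes and feedback regulators. Because other kinases also phosphorylate eIF2alpha, the ATF4 arm responds to amino acid shortage and other stresses as well, which is why it is called the integrated stress response. Activity of the sensors lies in splicing, cleavage and phosphorylation, which the RNA level of a sensor does not measure.

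ATF6 and XBP1 act through the ER stress element (ERSE), which is CCAAT, 9 bases of any kind and CCACG, in promoters of their targets. Promoter windows of 250 bases before and 50 after the annotated start (RefSeq, GRCm38.p6) were given for 29 of the 33 genes, and Hyou1, Manf, Derl1 and Atf6 had none. The ERSE, searched on both strands, was found for 9 of the 29 genes (31.0%). It was in 39 of all 32851 windows (0.119%), which belong to 27025 genes. The first share counts genes and the second counts windows. The 9 were Hspa5, Hsp90b1, Dnajc3, Pdia6, Calr, Canx, Creld2, Syvn1 and Derl3, none of them from the ATF4/CHOP arm. The upstream bases of Hspa5 (chr2:34771840-34772089, plus strand), the textbook ER stress promoter, are shown first, with the ERSE in capitals. The stretches around the ERSE of the other promoters whose genes are described in full below follow, each read on the strand of its gene, so that a copy in reverse starts with CGTGG.
Hspa5: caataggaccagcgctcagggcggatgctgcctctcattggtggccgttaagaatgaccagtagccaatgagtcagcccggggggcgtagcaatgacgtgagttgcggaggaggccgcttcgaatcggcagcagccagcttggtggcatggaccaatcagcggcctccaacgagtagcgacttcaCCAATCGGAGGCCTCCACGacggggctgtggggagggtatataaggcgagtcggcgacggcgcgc
Hsp90b1, distal copy: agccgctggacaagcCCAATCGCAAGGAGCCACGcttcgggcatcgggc
Hsp90b1, proximal copy in reverse: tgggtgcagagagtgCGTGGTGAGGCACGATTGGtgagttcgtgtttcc
Canx: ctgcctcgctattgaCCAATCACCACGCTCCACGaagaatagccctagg
Creld2, in reverse: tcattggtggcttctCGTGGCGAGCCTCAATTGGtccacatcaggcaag
Syvn1: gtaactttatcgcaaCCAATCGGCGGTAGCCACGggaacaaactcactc
The short stretches, each an ERSE with 15 flanking bases on either side, span chr10:86705623-86705671 (distal) and chr10:86705518-86705566 (proximal) for Hsp90b1 and chr11:50325785-50325833 for Canx on the minus strand, and chr15:88819505-88819553 for Creld2 and chr19:6046517-6046565 for Syvn1 on the plus strand. Counted from the start of the gene, the ERSE itself covers bases -65 to -47 in Hspa5, -212 to -194 and -107 to -89 in Hsp90b1, -145 to -127 in Canx, -126 to -108 in Creld2 and -44 to -26 in Syvn1. The related element ERSE-II, ATTGG and CCACG with 1 base between them, was found for Dnajb11 and Herpud1 (6.90% of the 29 genes, against 0.0365% of all windows). The element UPRE, searched as TGACGTGG, and the ATF4 and CHOP element CARE, searched as TGATGNAAT, were found for none of the 29 genes. Their shares of all windows were 0.676% and 0.965%. Variants of these letters and bases outside the window were not searched. With shares this low, no match among 29 genes does not show that these genes lack the elements. A match of letters is a description of the window and does not show that a factor binds there.

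Each of the 13 arrays holds 45018 spots, and the share of spots well above background was 60.5% to 73.1% on 12 arrays. TEKI replicate 1 stood apart with 86.8%, and with 87 non-uniform spots against 1 to 6 on the others. The 3 TEKI arrays shared a slide with WT replicate 5, the other WT arrays lay on 2 slides without another genotype, and TAKI arrays lay on 2 slides of their own, so that for TAKI the slide cannot be told apart from the genotype. All 8 hepatocyte markers checked, Alb, Ttr and Apoa1 among them, were well above background on every array. The arrays measure RNA levels and do not read the amino acid at position 522, so they are no check of the genotype. Values below are log2 levels with the array's 75th percentile set to 0, for 1 probe per gene, and are compared between livers for the same gene only. Differences are limma estimates ± SE from 1 model of the 3 genotypes, with p-values adjusted by Benjamini-Hochberg over all 20392 genes. Precision is limited by the number of arrays, which is 3 for TEKI. In whole liver, fewer cells of a type and less RNA per cell cannot be told apart.

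No member of either arm passed the adjusted threshold of 0.05 in any of the 3 comparisons (limma), while most members had lower means in both knock-ins than in WT. In TEKI livers 31 of 33 members had a mean below WT, with a median difference of -0.29, against 37.5% of all genes below WT and a median of 0.07. In TAKI livers 29 of 33 had a mean below WT, with a median difference of -0.18, against 49.6% of all genes and a median of 0.00216. Both comparisons use the same WT arrays, so their like direction is not independent. Bright probes alone were lower somewhat more often: among the 10087 genes whose mean levels lie in the range of the members, 53.9% were below WT in TEKI and 60.4% in TAKI, with medians of -0.01 and -0.04. The background share of calls was 0.0049% of genes in TEKI against WT (1 gene), 2.82% in TAKI against WT (575 genes) and 3.45% in TEKI against TAKI (704 genes), and 0 of 33 members were called in each. At an unadjusted p under 0.05, members lower in TEKI than in WT were Pdia3, Hyou1 and Canx, 3 of 33 against 1.44% of all genes. In TAKI against WT Canx was the 1 such member, against 5.3% of all genes lower, and in TEKI against TAKI it was Pdia3, against 3.81% lower. Pdia3, Hyou1 and Canx were each lowest in TEKI replicate 1 and highest in WT replicate 1, so the 3 are not independent. The share at this p among genes in the range of member levels is not given here. No member differed by 2-fold in any comparison, while 8.83%, 7.28% and 9.47% of all genes did in TEKI against WT, TAKI against WT and TEKI against TAKI.

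**Figure D1:**
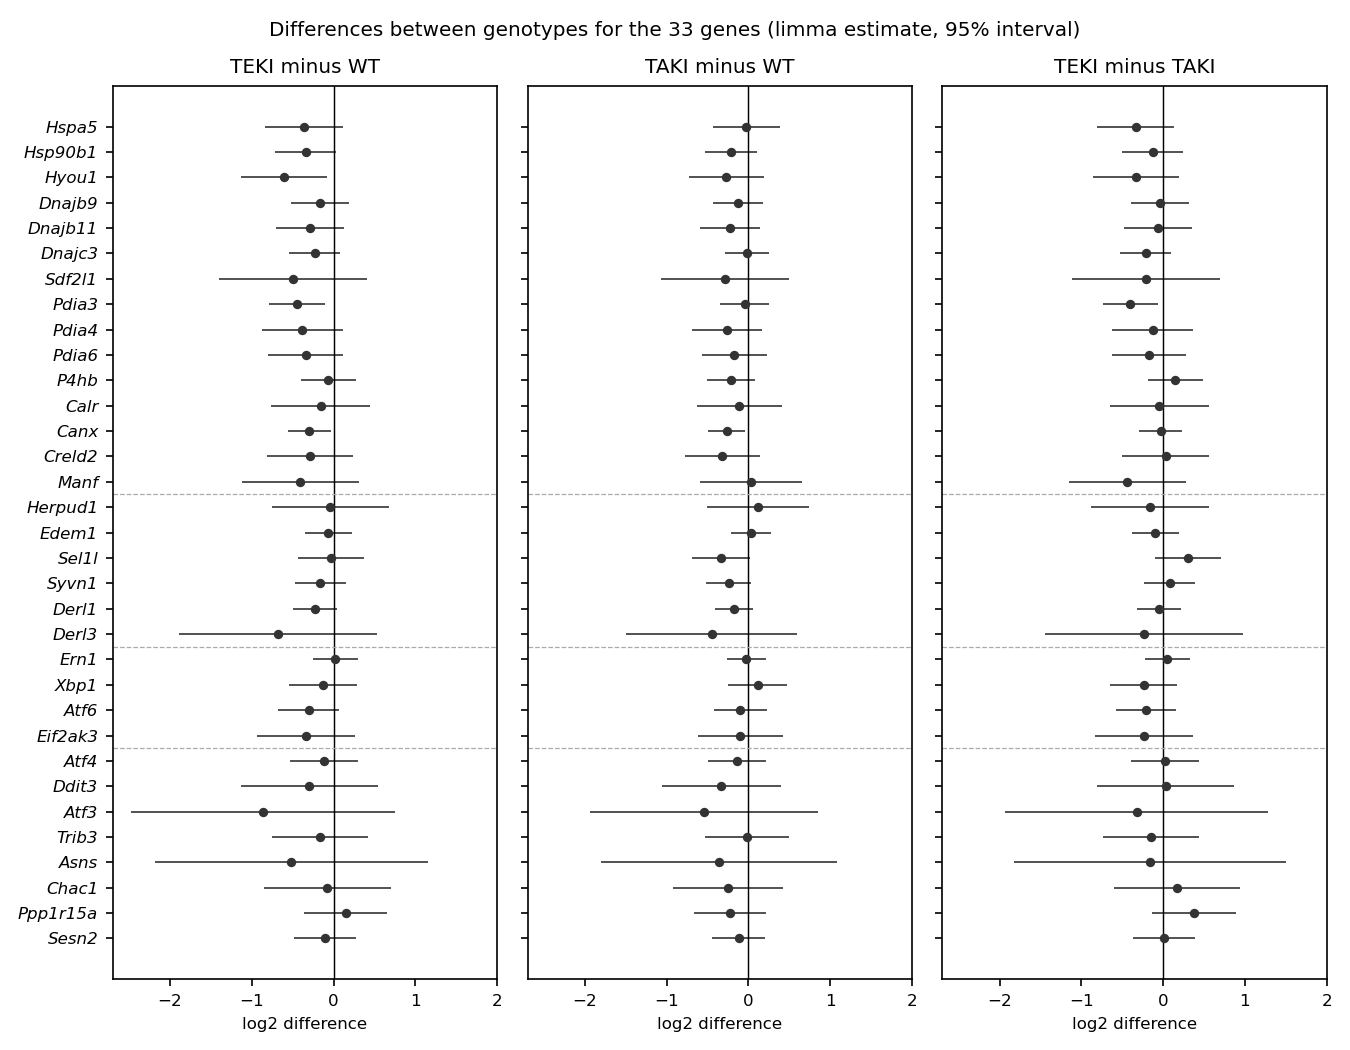
Log2 differences (horizontal axis) with 95% intervals for the 33 genes (rows, dashed lines between folding, degradation, sensor and ATF4/CHOP genes) in TEKI minus WT, TAKI minus WT and TEKI minus TAKI. In TEKI minus WT 31 of 33 points lie below 0, and only the intervals of Hyou1, Pdia3 and Canx exclude it, before any adjustment for the number of genes.

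Among the 15 folding genes, all 15 had a lower mean in TEKI than in WT (median difference -0.34) and 14 of 15 in TAKI (median -0.21), with none past the threshold. Hspa5 encodes BiP, the Hsp70 chaperone of the ER lumen that also holds the sensors inactive. Its level was 5.54, 5.99 and 6.40 in the TEKI livers, 6.20, 6.30, 6.23, 6.26 and 6.59 in the TAKI livers, and 6.71, 6.57, 5.97, 6.46 and 5.99 in the WT livers. The TEKI livers spanned more than the TAKI livers, and all 3 groups overlapped. Hspa5 differed by -0.36 ± 0.22 in TEKI against WT (95% interval -0.84 to 0.11, limma adjusted p = 0.529) and by -0.02 ± 0.19 in TAKI against WT (interval -0.43 to 0.39). The TEKI difference was -0.14 without TEKI replicate 1, and -0.00645 against WT replicate 5 alone, on the shared slide. Both intervals include 0, and the TAKI estimate changes sign when WT replicate 1 is left out (0.07).

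Pdia3 (ERp57), the disulfide isomerase that works with calnexin and calreticulin on glycoproteins, separated TEKI from the other genotypes. Its level was 3.49, 3.73 and 3.81 in the TEKI livers, 3.99, 4.01, 4.11, 3.97 and 4.30 in the TAKI livers, and 4.55, 4.24, 3.87, 3.95 and 4.00 in the WT livers. Every TEKI liver lay below every TAKI and every WT liver. Such separation below WT was seen in 1.27% of all genes, and below TAKI in 2.74%. Pdia3 was the 1 member of 33 with it in either comparison, so the member count is small beside these shares. The difference was -0.45 ± 0.16 in TEKI against WT (a level 0.734 times WT, unadjusted p = 0.0147, limma adjusted p = 0.39) and -0.40 ± 0.16 in TEKI against TAKI (adjusted p = 0.304). In TAKI against WT it was -0.05 ± 0.14. Against WT replicate 5 alone, which shared the TEKI slide, the TEKI difference was -0.32, and without TEKI replicate 1 it was -0.35. The Pdia3 probe maps to chr2:121178655-121178715 (mm7, plus strand), per the file headers.

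Hyou1 (GRP170), the nucleotide exchange factor of BiP, had the largest TEKI difference among the folding genes. Hyou1 read 0.91, 1.35 and 1.71 in the TEKI livers, 1.80, 1.37, 1.57, 1.57 and 1.97 in the TAKI livers, and 2.54, 2.15, 1.61, 1.73 and 1.62 in the WT livers. TEKI replicate 1 was the lowest of all 13 livers and WT replicate 1 the highest, and TEKI replicate 3 lay within the WT range. The difference was -0.61 ± 0.24 in TEKI (a level 0.657 times WT, unadjusted p = 0.0283, limma adjusted p = 0.404) and -0.27 ± 0.21 in TAKI (adjusted p = 0.632). The TEKI difference was -0.40 without TEKI replicate 1, -0.25 without TEKI replicate 1 and WT replicate 1 together, and -0.30 against WT replicate 5 alone. A second Hyou1 probe was above background on 2 arrays only and gave no value. The tested probe maps to chr9:44326629-44326688 (mm7, plus strand).

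Canx, the membrane-bound lectin chaperone calnexin, whose promoter stretch is printed above, was the folding gene that varied least between livers of a genotype (pooled SD 0.15). Its level was 4.19, 4.50 and 4.53 in the TEKI livers, 4.48, 4.48, 4.33, 4.46 and 4.46 in the TAKI livers, and 4.99, 4.70, 4.49, 4.71 and 4.63 in the WT livers. All 5 TAKI livers lay below the lowest WT liver, whereas the TEKI livers overlapped WT. The separation in TAKI was seen in 1.86% of all genes and in 1 of 33 members. The difference was -0.27 ± 0.10 in TAKI (a level 0.831 times WT, unadjusted p = 0.026, limma adjusted p = 0.246) and -0.30 ± 0.12 in TEKI (unadjusted p = 0.0297, adjusted p = 0.404). The TEKI difference was -0.19 without TEKI replicate 1, and -0.12 without TEKI replicate 1 and WT replicate 1 together. Without any scaling between arrays the TAKI difference was -0.05. With array weights it passed the threshold (-0.29, adjusted p = 0.0467), as did Sel1l (-0.46, adjusted p = 0.0401), 2 of 33 members beside 2252 genes. Both other Canx probes also read lower, by -0.14 and -0.18 in TEKI and by -0.11 and -0.12 in TAKI. The tested probe maps to chr11:50251302-50251361 (mm7, minus strand).

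Hsp90b1 (GRP94), the ER member of the Hsp90 family, read 5.84, 5.99 and 6.47 in the TEKI livers, 6.18, 6.08, 6.25, 6.16 and 6.46 in the TAKI livers, and 6.75, 6.53, 6.16, 6.53 and 6.24 in the WT livers. TEKI replicates 1 and 2 and TAKI replicates 2 and 4 lay below every WT liver. The difference was -0.34 ± 0.17 in TEKI and -0.21 ± 0.15 in TAKI, with adjusted p = 0.453 and 0.579 (limma). Pdia4 (ERp72), a disulfide isomerase, stood at 2.01, 2.52 and 2.93 in the TEKI livers, 2.53, 2.55, 2.59, 2.50 and 2.90 in the TAKI livers, and 3.38, 2.94, 2.45, 2.97 and 2.62 in the WT livers. TEKI replicate 1 was again the lowest and WT replicate 1 the highest of 13. Its difference was -0.39 ± 0.23 in TEKI and -0.26 ± 0.20 in TAKI.

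P4hb, the founding protein disulfide isomerase, had levels of 6.32, 6.67 and 6.79 in the TEKI livers, 6.48, 6.54, 6.34, 6.36 and 6.49 in the TAKI livers, and 7.12, 6.53, 6.55, 6.56 and 6.50 in the WT livers. WT replicate 1 was the highest of 13, and the groups overlapped. P4hb differed by -0.06 ± 0.15 in TEKI and -0.21 ± 0.13 in TAKI (limma adjusted p = 0.541). Creld2, an ER protein induced by ER stress, had levels of 3.59, 4.11 and 4.67 in the TEKI livers, 3.96, 4.30, 4.04, 3.88 and 4.28 in the TAKI livers, and 4.77, 4.51, 4.09, 4.66 and 4.02 in the WT livers. The TEKI livers were spread over nearly the whole range of the study. Differences were -0.29 ± 0.24 in TEKI and -0.32 ± 0.21 in TAKI.

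The J-domain cochaperones bring unfolded protein to BiP. Dnajb11 (ERdj3) read 3.58, 3.90 and 4.35 in the TEKI livers, 4.03, 3.97, 3.96, 3.81 and 4.27 in the TAKI livers, and 4.72, 4.14, 4.05, 4.10 and 4.16 in the WT livers. WT replicate 1 was far above the other WT livers, which lay among the knock-in livers. Dnajb11 differed by -0.29 ± 0.19 in TEKI and -0.22 ± 0.17 in TAKI. Dnajc3 (p58IPK) and Dnajb9 (ERdj4) differed by -0.23 ± 0.14 and -0.17 ± 0.16 in TEKI, and by -0.02 ± 0.12 and -0.13 ± 0.14 in TAKI. Sdf2l1, a partner of Dnajb11 in the ER lumen, read -0.25, 0.25 and 0.49 in the TEKI livers, 0.15, 0.62, 0.33, 0.04 and 0.72 in the TAKI livers, and 2.15, 0.64, 0.19, 0.44 and -0.11 in the WT livers. WT replicate 1 stood far above every other liver, and the other WT livers lay within the range of the knock-ins. The remaining folding genes, Pdia6 (a disulfide isomerase), Calr (calreticulin, the soluble lectin chaperone) and Manf (a secreted factor induced by ER stress), differed by -0.34, -0.16 and -0.41 in TEKI and by -0.17, -0.11 and 0.03 in TAKI. Manf was thus the folding gene without a lower TAKI mean.

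**Figure D2:**
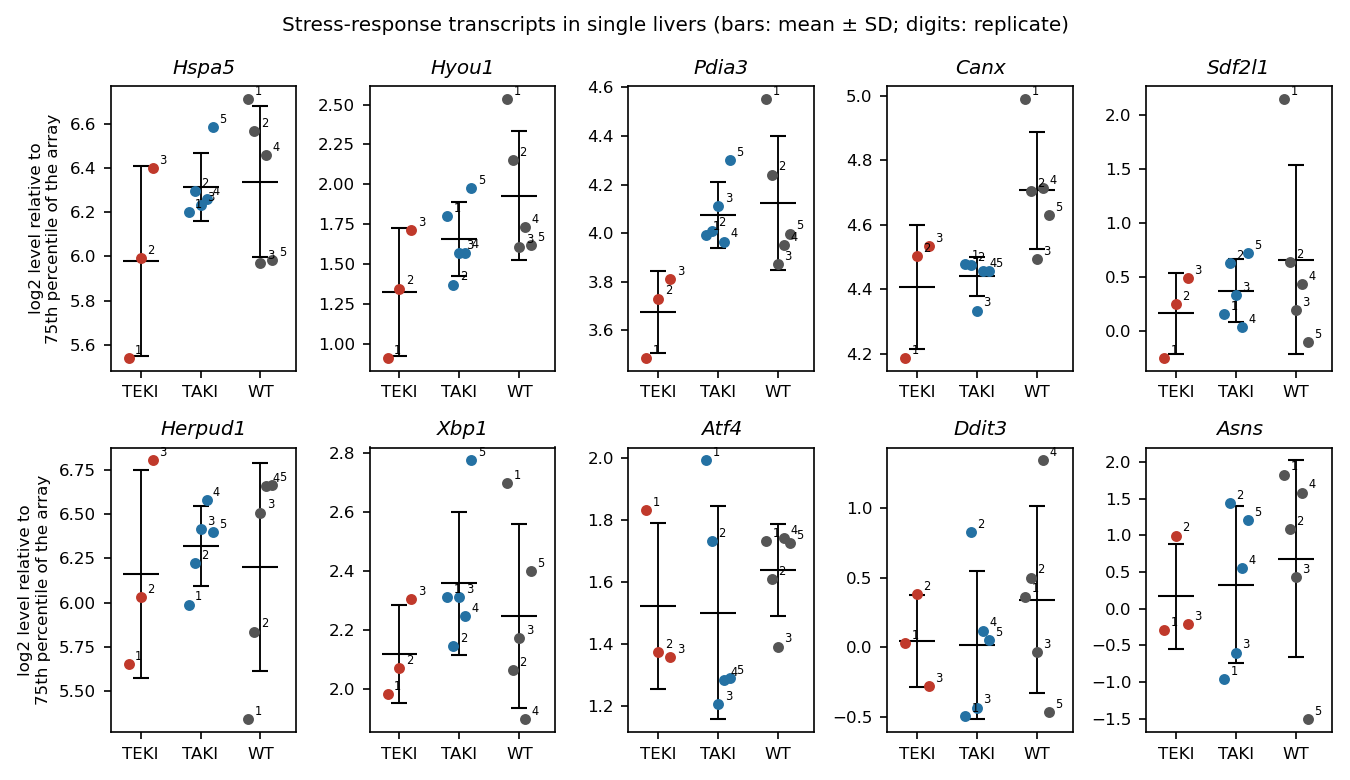
Log2 level, with the array's 75th percentile at 0 (vertical axis), of 10 genes in every liver, by genotype (TEKI, TAKI, WT), with mean and SD. Points carry the replicate number. TEKI replicate 1 is lowest and WT replicate 1 highest for Hspa5, Hyou1, Pdia3, Canx and Sdf2l1, while Herpud1, Atf4, Ddit3 and Asns order the livers differently.

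The 6 degradation genes were below WT in 6 of 6 cases in TEKI (median difference -0.11) and in 4 of 6 in TAKI (median -0.21), none past the threshold. Sel1l is the adaptor of the ubiquitin ligase Syvn1 (HRD1), and the pair forms the core of the export and ubiquitination complex. Sel1l stood at 0.36, 0.66 and 1.05 in the TEKI livers, 0.72, 0.39, 0.23, 0.14 and 0.43 in the TAKI livers, and 0.91, 0.86, 0.48, 0.91 and 0.45 in the WT livers. All TAKI livers but replicate 1 lay below the lowest WT liver. The difference was -0.34 ± 0.16 in TAKI (limma adjusted p = 0.37), -0.03 ± 0.19 in TEKI, and 0.31 ± 0.19 in TEKI against TAKI (adjusted p = 0.573). Its other probes read -0.03 and 0.17 in TEKI against WT, and -0.08 and -0.42 in TAKI against WT.

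Syvn1 had levels of 5.02, 4.98 and 5.53 in the TEKI livers, 5.14, 4.93, 5.14, 5.01 and 5.28 in the TAKI livers, and 5.33, 5.44, 5.27, 5.53 and 5.13 in the WT livers. The lowest livers were TEKI replicate 2 and TAKI replicates 2 and 4, and the groups overlapped. Syvn1 differed by -0.24 ± 0.12 in TAKI (limma adjusted p = 0.42) and by -0.16 ± 0.14 in TEKI. A second Syvn1 probe, much dimmer and above background on 12 arrays, read 0.71 in TEKI and -0.61 in TAKI, so the probes disagree for TEKI. When all probes of a gene were averaged, Syvn1 was the 1 member past the threshold in TEKI against TAKI (0.70, adjusted p = 0.0289), a value set by the dim probe. Derl1, a channel component for export from the ER, read 3.56, 4.01 and 3.90 in the TEKI livers, 3.79, 4.12, 3.86, 3.79 and 3.83 in the TAKI livers, and 4.22, 3.95, 4.01, 4.11 and 3.98 in the WT livers. Its difference was -0.23 ± 0.12 in TEKI and -0.18 ± 0.11 in TAKI. Further Derl1 probes, above background on all 13 arrays, read -0.23, -0.0014 and -0.03 in TEKI. In the same order they read 0.01, -0.15 and -0.15 in TAKI. The probe at -0.0014 was about as bright as the tested probe (means of 3.93 and 3.82 in TEKI), so the TEKI difference depends on the probe.

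Herpud1, a scaffold of the degradation complex, did not follow the chaperones. Herpud1 levels were 5.65, 6.03 and 6.80 in the TEKI livers, 5.99, 6.22, 6.42, 6.58 and 6.40 in the TAKI livers, and 5.34, 5.84, 6.51, 6.66 and 6.67 in the WT livers. Its lowest value was that of WT replicate 1, the liver with the highest chaperone levels. The differences were -0.04 ± 0.33 in TEKI and 0.12 ± 0.28 in TAKI. Edem1, which recognises misfolded glycoproteins, differed by -0.06 ± 0.13 and 0.03 ± 0.11 in TEKI and TAKI. Derl3, a dim transcript with a pooled SD of 0.82, differed by -0.68 ± 0.55 and -0.45 ± 0.48.

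Of the 4 sensors and their factors, 3 of 4 had a lower mean than WT in either knock-in and none passed the threshold. Xbp1 encodes the factor whose RNA IRE1 splices. Xbp1 read 1.98, 2.07 and 2.30 in the TEKI livers, 2.31, 2.15, 2.31, 2.25 and 2.78 in the TAKI livers, and 2.70, 2.06, 2.17, 1.90 and 2.40 in the WT livers. The highest livers were TAKI replicate 5 and WT replicate 1, and the groups overlapped. The difference was -0.13 ± 0.19 in TEKI and 0.11 ± 0.16 in TAKI (limma adjusted p = 0.852 and 0.827), and splicing was not analysed here. Atf6 stood at 1.71, 1.81 and 2.10 in the TEKI livers, 2.05, 2.03, 1.84, 2.23 and 2.24 in the TAKI livers, and 1.87, 2.37, 2.22, 2.54 and 1.89 in the WT livers. TEKI livers were in the lower part of the WT range or below it, and Atf6 differed by -0.30 ± 0.17 in TEKI (limma adjusted p = 0.496) and -0.10 ± 0.15 in TAKI. A second Atf6 probe, dimmer but above background on all 13 arrays, read -0.11 ± 0.13 in TEKI and 0.01 ± 0.11 in TAKI. Eif2ak3 (PERK) differed by -0.34 ± 0.27 and -0.10 ± 0.24, and Ern1 (IRE1) by 0.02 ± 0.13 and -0.03 ± 0.11, in TEKI and TAKI.

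Of the 8 genes of the ATF4/CHOP arm, 7 had a lower mean in TEKI than in WT (median difference -0.14) and all 8 in TAKI (median -0.24), with none at an unadjusted p under 0.05. Atf4, the transcription factor at the head of the arm, is controlled mainly at translation. Atf4 RNA stood at 1.83, 1.38 and 1.36 in the TEKI livers, 1.99, 1.73, 1.21, 1.29 and 1.29 in the TAKI livers, and 1.73, 1.61, 1.39, 1.74 and 1.73 in the WT livers. TAKI replicate 1 was the highest and TAKI replicate 3 the lowest of the 13 livers, and the groups overlapped. The difference was -0.12 ± 0.19 in TEKI and -0.14 ± 0.17 in TAKI (limma adjusted p = 0.868 and 0.779). Ddit3 (CHOP), the factor tied to cell death under lasting stress, read 0.03, 0.38 and -0.28 in the TEKI livers, -0.50, 0.82, -0.43, 0.12 and 0.05 in the TAKI livers, and 0.36, 0.50, -0.03, 1.34 and -0.47 in the WT livers. WT replicate 4 was the highest and WT replicate 5 near the lowest of all livers. Ddit3 differed by -0.30 ± 0.38 in TEKI (interval -1.14 to 0.54) and -0.33 ± 0.33 in TAKI (interval -1.06 to 0.40). Within the slide that TEKI shared with WT replicate 5, the TEKI difference of Ddit3 was 0.51.

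Of the targets downstream, Asns and Atf3 varied most between livers, with pooled SDs of 1.13 and 1.09, against 0.24 for Sesn2, which varied least among them. Asns (asparagine synthetase, a classic amino acid response gene) had the largest pooled SD of all members. Asns levels were -0.29, 1.00 and -0.21 in the TEKI livers, -0.96, 1.44, -0.60, 0.56 and 1.21 in the TAKI livers, and 1.83, 1.09, 0.43, 1.58 and -1.51 in the WT livers. The WT livers alone spanned the whole range, with WT replicate 5 lowest and WT replicate 1 highest. Its differences were -0.52 ± 0.76 in TEKI and -0.36 ± 0.66 in TAKI. Atf3, a stress-induced factor, read -0.22, 0.79 and -1.63 in the TEKI livers, -1.49, 1.23, -0.59, 0.40 and 0.30 in the TAKI livers, and 0.84, 0.60, 0.74, 1.66 and -1.28 in the WT livers. Each genotype held both high and low livers, and Atf3 differed by -0.87 ± 0.74 in TEKI and -0.54 ± 0.64 in TAKI. Ppp1r15a (GADD34), which brings a phosphatase to eIF2alpha and so ends the response, stood at 0.04, -0.31 and -0.64 in the TEKI livers, -0.25, -0.23, -0.84, -0.99 and -1.08 in the TAKI livers, and -0.40, -0.68, -0.32, -0.16 and -0.68 in the WT livers. TEKI replicate 1 was the highest of 13 and TAKI replicates 3, 4 and 5 the lowest. It was the member with the highest TEKI minus TAKI difference (0.37 ± 0.23, limma adjusted p = 0.585) and differed by 0.15 ± 0.23 in TEKI and -0.23 ± 0.20 in TAKI. Trib3 (a pseudokinase), Chac1 (an enzyme that degrades glutathione) and Sesn2 (sestrin 2, a stress-induced brake on mTORC1) differed by -0.16, -0.08 and -0.11 in TEKI and by -0.02, -0.24 and -0.12 in TAKI.

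TEKI against TAKI, the direct contrast of both substitutions, gave 23 of 33 members lower in TEKI (median -0.13, against 39.4% of all genes and a median of 0.06). By arm, 17 of 21 genes of the ATF6/XBP1 arm were lower in TEKI (median -0.13), and 3 of 8 of the ATF4/CHOP arm (median 0.02). Hspa5 differed by -0.34 ± 0.22 (limma adjusted p = 0.597) and Manf by -0.44 ± 0.33. Without TEKI replicate 1 the median over all members was 0.0015, with 16 of 33 lower in TEKI.

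Taking each liver by itself, as the median deviation of the arm from the WT means, the ATF6/XBP1 arm was at -0.55, -0.31 and 0.06 in TEKI replicates 1 to 3. It was at -0.21, -0.22, -0.20, -0.28 and 0.04 in TAKI replicates 1 to 5, and at 0.37, 0.09, -0.25, 0.04 and -0.21 in WT replicates 1 to 5. WT livers 3 and 5 thus lay as low as most TAKI livers, and TEKI replicate 3 lay among the higher livers. TEKI replicate 1, the array with the most probes above background, was the lowest of 13 for 15 of the 21 genes, and WT replicate 1 was the highest for 15 of 21. The ATF4/CHOP arm ordered the livers otherwise. It was at -0.35, 0.04 and -0.32 in TEKI, at -0.62, 0.29, -0.47, -0.25 and -0.25 in TAKI, and at 0.03, -0.01, 0.10, 0.69 and -0.50 in WT. WT replicate 4 was the highest of 13 for 5 of the 8 genes.

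**Figure D3:**
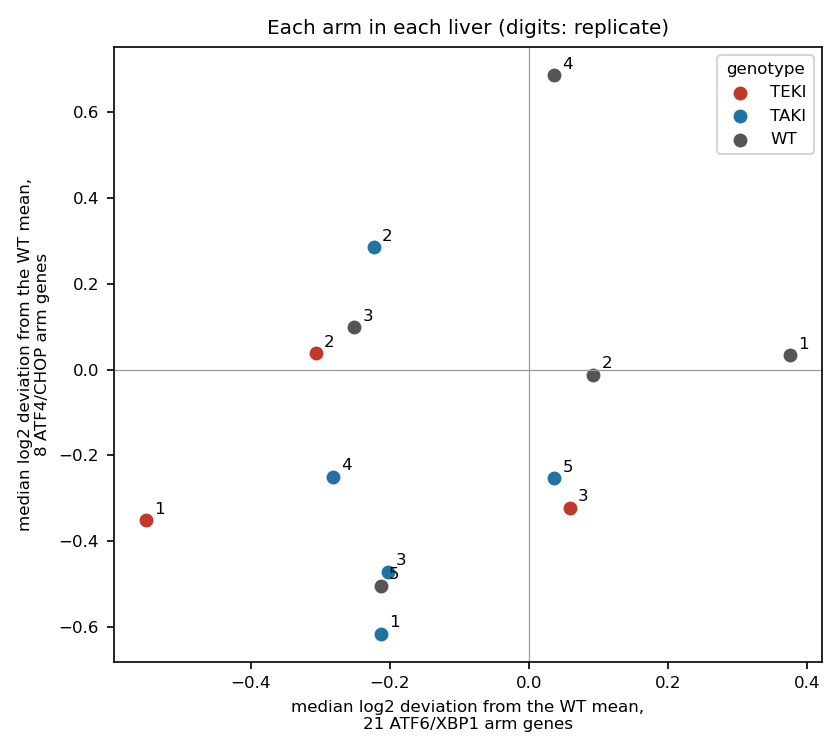
Each point is 1 liver, with its replicate number. The horizontal axis is the median log2 deviation from the WT mean over the 21 ATF6/XBP1 arm genes and the vertical axis that over the 8 ATF4/CHOP arm genes, coloured by genotype. Along the horizontal axis TEKI replicate 1 (-0.55) and WT replicate 1 (0.37) are the extremes, and along the vertical axis WT replicate 4 (0.69) is the highest.

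These 2 arrays carried much of the group differences. Without TEKI replicate 1, 26 of 33 members were below WT in TEKI and the folding median was -0.15. Without TEKI replicate 1 and WT replicate 1, a setting chosen after seeing the data, 22 of 33 were below WT in TEKI, with 9 of 15 folding genes and a folding median of -0.02. The same setting left 25 of 33 below WT in TAKI, with 9 of 15 folding genes and a folding median of -0.09. On the slide shared by the TEKI arrays and WT replicate 5, 16 of 33 members were lower in TEKI, 10 of 15 folding genes among them (folding median -0.06), and the median over all members was 0.05. The ATF4/CHOP median on that slide was 0.44. Whether the 86.8% of spots above background on TEKI replicate 1 bears on its low chaperone values was not tested.

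The folding genes varied together from liver to liver. Over the 13 livers, with the genotype mean of each gene removed, the median Pearson r among the 15 folding genes was 0.80, and 104 of 105 pairs were above 0. Across the 21 genes of the ATF6/XBP1 arm it was 0.63 (193 of 210 pairs above 0), and among the 8 ATF4/CHOP genes 0.33 (21 of 28). Between the arms the median was 0.07 (96 of 168 pairs above 0), and against all other genes tested it was -0.07 for the ATF6/XBP1 arm and -0.04 for the ATF4/CHOP arm. These values are descriptions: the points share arrays, scaling and slides, and WT replicate 1 and TEKI replicate 1 lie at the ends. Pdia4 (0.88) and Pdia6 (0.88) had the highest median r with the folding genes. Dnajb9 (0.23) and Herpud1 (-0.17) stood outside, Xbp1 itself was at 0.58, and Atf6 and Ern1 were at 0.04 and -0.08. Within the other arm Atf3 with Asns and Atf3 with Ddit3 had r of 0.88 each, and Ddit3 with Asns 0.83. Eif2ak3, the kinase upstream, had r of 0.75 with Ddit3, while Atf4 RNA had r of 0.11 with it.

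**Figure D4:**
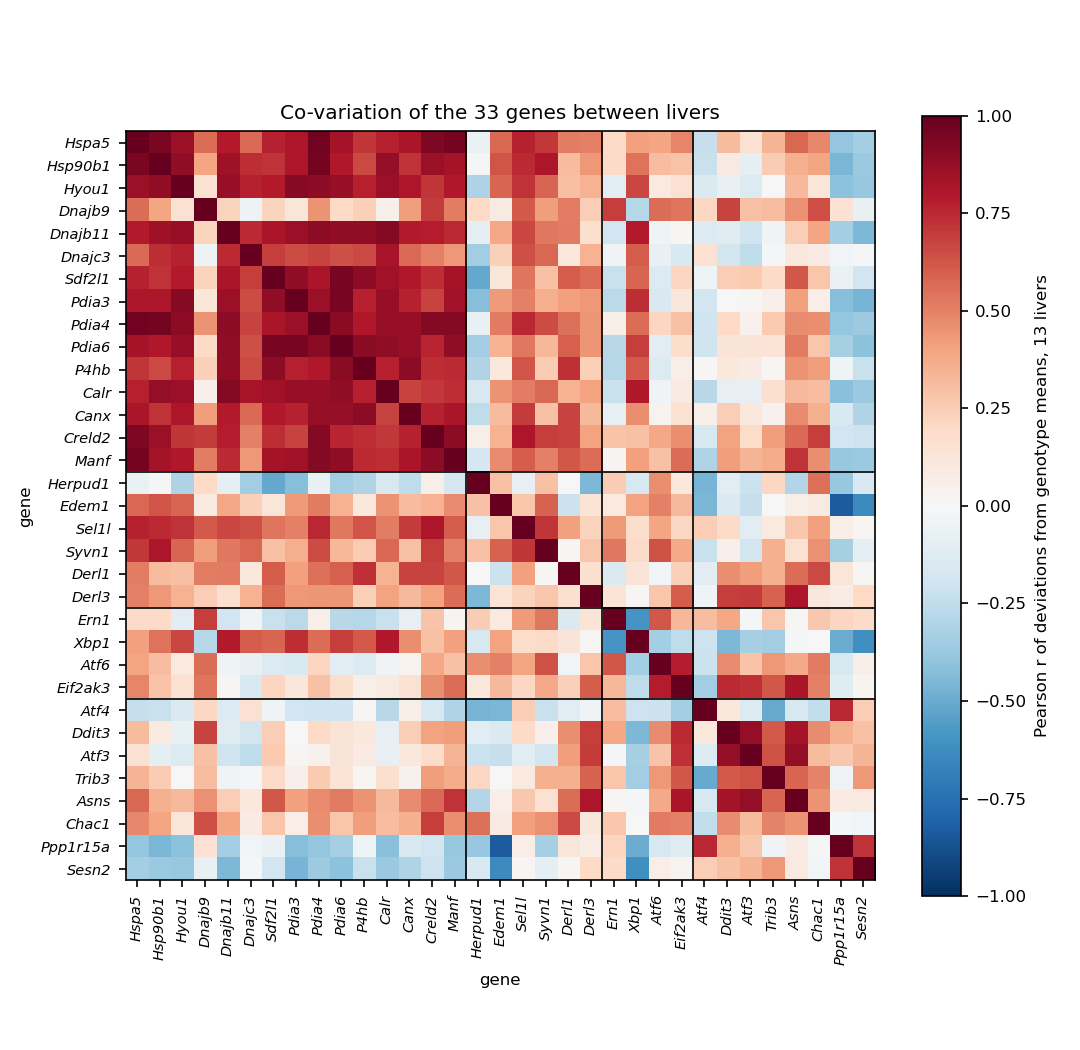
Pearson r over 13 livers of deviations from genotype means for every pair of the 33 genes (both axes list the genes; black lines separate folding, degradation, sensor and ATF4/CHOP genes; red positive, blue negative). The folding block is red (median 0.80) and the ATF4/CHOP block is mixed (median 0.33). The field between the arms is also mixed, with r from -0.83 to 0.81 around a median of 0.07.

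Of the 9 pairs tested over the 13 livers without removing genotype, 3 passed after Benjamini-Hochberg adjustment over the 9 (two-sided permutation tests, 100000 resamples). Hspa5 with Hsp90b1 had Pearson r = 0.89 (p = 4e-05, adjusted p = 0.00036) and Spearman rho = 0.78 (p = 0.00229, adjusted p = 0.0103, permutation). Hspa5 with Hyou1 had r = 0.86 (p = 0.00021, adjusted 0.000945) and rho = 0.73 (p = 0.00585, adjusted 0.0175, permutation), and Hspa5 with Sdf2l1 had r = 0.76 (p = 0.00376, adjusted 0.0113) and rho = 0.89 (p = 0.00015, adjusted 0.00135, permutation). Without TEKI replicate 1 and WT replicate 1, the livers farthest from the median of Hspa5, r was 0.80, 0.69 and 0.79 for the 3 pairs in that order. Across the arms, Hspa5 with Ddit3 had r = 0.33 (permutation p = 0.272) and Hspa5 with Atf4 r = -0.15 (permutation p = 0.639). Xbp1 with Dnajb9, a known XBP1 target, had r = -0.24 (permutation p = 0.439). That pair rests on 1 of 3 Dnajb9 probes, which had r of 0.58 and 0.45 with the others. Atf4 with Asns had r = -0.10 (permutation p = 0.74). Ddit3 with Trib3 had r = 0.60 (permutation p = 0.0316, adjusted p = 0.071), which was 0.33 without the 2 livers farthest from the median, and Trib3 with Chac1 had r = 0.47 (permutation p = 0.108). Slides hold 1 to 4 arrays, too few for values within a slide.

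The 9 genes with an ERSE in the window had a median r of 0.70 with each other (36 pairs), and the 9 other genes of the arm with a window 0.44 (36 pairs). In TEKI against WT the median difference was -0.30 with the element (9 of 9 below WT) and -0.17 without it (9 of 9), and in TAKI against WT it was -0.21 in either set (9 of 9 and 7 of 9 below WT). The set without the element holds Dnajb11 and Herpud1, which have the related ERSE-II. It also holds both genes that stood outside the folding genes above, Dnajb9 and Herpud1. The sets thus differ in more than the ERSE, and the difference between them was not tested.

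For 13 members, 23 further probes were above background. In TEKI against WT 18 of the 23 read below WT (median -0.14), with the same sign as the tested probe in 18, and in TAKI against WT 18 of 23 did (median -0.12), with the same sign in 16. Dnajc3, the member with 3 further probes all lower in both knock-ins, read -0.35, -0.23 and -0.14 in TEKI. The Dnajb9 probes disagreed in TAKI, where the further ones read 0.18 and 0.09. Members lay in the upper and the lower rows of the array: in TEKI against WT 15 of 15 in the upper rows (1 to 266) and 16 of 18 in the lower rows (267 to 532) were below WT, and in TAKI against WT 14 of 15 and 15 of 18.

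Genes around the members were examined in 5 further lists. Of their 104 genes tested, 1 passed the threshold in TAKI against WT (0.962%, against 2.82% of all genes) and none in TEKI against WT, so the lists held no more calls than the background. Mbtps1, the site-1 protease that cuts ATF6 in the Golgi, averaged 4.52 ± 0.12 in TEKI livers, 4.25 ± 0.09 in TAKI livers and 4.60 ± 0.11 in WT livers (SD, n = 3, 5 and 5). In TAKI, which lay on slides of its own, it was lower than in WT by 0.36 ± 0.09 on the log2 scale. The limma adjusted p of 0.0484 was just under the threshold. Every TAKI liver lay below every WT liver, a separation seen in 1.86% of all genes. For Mbtps1 the difference in TEKI against WT was -0.08 ± 0.10. Among the 22 other folding and glycosylation genes, 17 were below WT in TEKI (median -0.04) and 16 in TAKI (median -0.08). Rpn1, a subunit of the oligosaccharyltransferase, differed by -0.28 ± 0.14 in TEKI and -0.35 ± 0.13 in TAKI (limma adjusted p = 0.191). Of the 22 translocation and export genes 20 were below WT in TEKI (median -0.11) and 16 in TAKI (median -0.09), and the genes of smallest p were Sec31a, a coat protein of export vesicles, in TEKI (-0.27) and Ssr3, a subunit of the translocon-associated complex, in TAKI (-0.28). Lman1, a cargo receptor of export vesicles, had the lowest TAKI difference of that list (-0.36 ± 0.14, unadjusted p = 0.0258, limma adjusted p = 0.245). Of the 16 other degradation genes 10 were below WT in TEKI (median -0.02) and 14 in TAKI (median -0.09). None of these 3 lists held a call.

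Of 31 other targets of the integrated stress response 30 were tested, and 23 were below WT in TEKI (median -0.10) and 22 in TAKI (median -0.10), with no call. Slc7a1, a cationic amino acid transporter, was higher in TAKI than in WT before adjustment (1.11 ± 0.30, unadjusted p = 0.00332, limma adjusted p = 0.0824), and Sars, a transfer RNA synthetase, was lower (-0.28 ± 0.10, adjusted p = 0.2). In TEKI the smallest p-values were those of Stc2 and Pycr1, which were above background on 5 and 3 of 13 arrays. Fgf21, a liver hormone induced through ATF4, differed by -0.76 ± 0.46 in TEKI and -0.30 ± 0.40 in TAKI. Gdf15, another secreted stress hormone, differed by -0.31 ± 0.24 and -0.32 ± 0.21. Both hormones were chosen after their values were seen, and neither passed the threshold. Of the 14 other sensors, kinases and factors, Mbtps1 among them, 7 were below WT in TEKI and 9 in TAKI.

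Markers of other cells differed in part between genotypes. Of all 20392 genes tested, 12742 had a higher mean in TEKI than in WT and 10269 in TAKI. Calls were 0.0049% of all genes in TEKI against WT and 2.82% in TAKI against WT. The marker counts that follow are read against these values. All 8 lymphocyte markers had higher means in TAKI than in WT, with Cd2 (1.05 ± 0.14, limma adjusted p = 0.00308) among those past the threshold, and 7 of 8 in TEKI with none past it. The summed level of the list was 2.36 to 3.38 in TEKI livers, 1.95 to 3.13 in TAKI livers and 1.41 to 2.85 in WT livers, in multiples of each array's 75th percentile. Of 11 pancreatic acinar markers 8 were tested, and 3 of these were above background on all 13 arrays, so the other values rest in part on dim spots. TEKI had higher means for 7 of the 8 with no call, and TAKI for 5, with Cpb1 past the threshold (1.68 ± 0.38, limma adjusted p = 0.0402), a probe above background on 2 of 3 TEKI, 5 of 5 TAKI and 3 of 5 WT arrays. Their summed level was 1.48 to 1.89 in TEKI, 1.16 to 1.56 in TAKI and 0.815 to 1.28 in WT, and Cela2a and Cuzd1 were too dim to test. Endothelial markers were higher in 6 of 7 cases in TEKI and in 7 of 7 in TAKI, with no call, and their sum was 24.3 to 27.4 in TEKI, 21.8 to 25.5 in TAKI and 16.8 to 23.8 in WT. Plasma cells, which are rich in ER chaperones, had 4 of 6 markers tested and no call, with sums of 16.6 to 20.2 in TEKI, 14.6 to 22.1 in TAKI and 16.8 to 21.3 in WT. Sdc1, which hepatocytes also express, made up 89.2% to 98.8% of that sum, and the other 3 markers summed to 0.371 to 2.03 in TEKI, 0.283 to 2.40 in TAKI and 0.238 to 0.394 in WT. Means of the 4 tested markers were above WT for 2 in TEKI and for 3 in TAKI. Sdc1 differed by -0.17 ± 0.12 in TEKI and -0.22 ± 0.11 in TAKI. Prdm1, above background on 10 of 13 arrays, differed by -0.35 ± 0.48 in TEKI and 0.47 ± 0.42 in TAKI. Jchain, the joining chain of immunoglobulins, differed by 1.46 ± 0.92 in TEKI and 0.77 ± 0.80 in TAKI. Mzb1, an ER protein of antibody-secreting cells, differed by 0.85 ± 0.42 in TEKI (limma adjusted p = 0.455) and 0.70 ± 0.37 in TAKI (adjusted p = 0.425), and its levels in each knock-in lay above every WT liver, a separation seen in 2.66% of all genes in TEKI and 5.64% in TAKI. Tnfrsf17 and Irf4, which define these cells, were too dim to test. Macrophage and stellate lists (8 and 6 genes) also held no call, with sums of 79.3 to 189.7 and 11.6 to 18.2 in TEKI, 104 to 195 and 10.5 to 19.2 in TAKI, and 96.4 to 205 and 12.1 to 19.1 in WT. Means were above WT for 3 macrophage markers in TEKI and 6 in TAKI, and for 3 and 2 stellate markers. Sums follow the brightest genes and say little about the dimmer ones. Cd5l was the brightest macrophage marker (means of 6.37 in TEKI, 6.57 in TAKI and 6.42 in WT). Clec4g was the brightest endothelial marker (3.77, 3.58 and 3.32). The hepatocyte list summed to 2453 to 3351 in TEKI, 1889 to 2665 in TAKI and 2110.0 to 3063 in WT, with no call. The part of these markers in the differences of the stress genes was not tested.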

How the data were processed

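Total liver RNA of 13 mice was measured on 1-colour Agilent whole-mouse-genome arrays. The authors deposited the scanner output of Agilent Feature Extraction 9.5 (per the submitters' processing notes): the processed intensity of each spot, background-subtracted within the array, on a linear scale with no scaling across arrays, per the file headers. The values in the deposited table equalled these intensities (largest absolute difference 0), so it is linear, uncentred and without a direction. By replicate, its column medians were 137, 66.3 and 56.1 in TEKI, 70.1, 73.4, 72.6, 94.5 and 90.5 in TAKI, and 66.1, 72.9, 49.1, 64.8 and 58.0 in WT.

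Probes were named through RefSeq accessions (22951), symbols (6659) or synonyms (3109), and 8455 kept the name in the file. Manf, Sel1l and Ppp1r15a were listed as Armet, Sel1h and Myd116. Flagged non-uniform or outlier spots were left out (98 probes, no member among them). Intensities were taken to log2, the array's 75th percentile was subtracted, and the brightest probe per gene was tested where 3 or more arrays had it well above background (20392 genes). limma 3.58.1 (R 4.3.3) fitted 1 model of 3 genotypes (10 residual degrees of freedom), with a threshold of 0.05 on the Benjamini-Hochberg adjusted p, and was tested on simulated data. The design text counts mice, so replicates are separate animals. Correlations between same-numbered replicates, of their deviations from group means, were -0.23 to 0.32. Livers with different numbers were not correlated for comparison, so these values do not settle whether replicates were paired. The main model treated them as unpaired, with a replicate block as an alternative.

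Members and lists were chosen with earlier results of these data known, so lists get counts and medians and no p. Members described in full were the 8 of smallest unadjusted p in each knock-in against WT and the 4 in TEKI against TAKI, with Hspa5, Xbp1, Atf4 and Ddit3 always. From other lists, called genes or those of smallest p were named. Sdf2l1, Herpud1, Asns, Atf3, Lman1, Sdc1, Prdm1, Jchain and Mzb1 were added after their values were seen. The value of 1 marker gene is not reported here. Alternatives changed scaling, background correction, filter, probe choice, model, blocks and arrays left out. Python 3.11.15, numpy 2.4.6, pandas 2.3.3, scipy 1.17.1 and matplotlib 3.10.9 were used.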

Additional observations from a re-analysis of the deposited data

Results flagged for a closer look

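Single livers far from the rest of their group, by Dixon's test at the 95% level, were found in 8 of 66 tests. Each test took 1 member within a group of 5 livers. The tests share livers and many members vary together, so they are not independent. No share over all genes is given beside the 8, so they are no result about the members as a set. In the WT group WT replicate 1 stood above the other 4 for P4hb (7.12), Calr (5.39) and Dnajb11 (4.72). In the TAKI group TAKI replicate 5 stood above the others for Hspa5 (6.59), Pdia4 (2.90) and Xbp1 (2.78). Also in TAKI, replicate 3 lay below the others for Canx (4.33) and replicate 2 above them for Derl1 (4.12). The TEKI group, with 3 livers, was not tested.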

How the results depend on the processing

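The count of 0 members past the threshold held in all 3 comparisons under all alternatives run (28 in TEKI minus WT, 26 in each other comparison) except array weights in TAKI minus WT (2, Canx and Sel1l) and the mean of all probes in TEKI minus TAKI (1, Syvn1). Over all genes, array weights called 1542 higher and 710 lower in TAKI minus WT. The mean of all probes called 496 higher and 179 lower in TEKI minus TAKI. Of the values of members described in full, 705 kept their direction and side of the threshold, 17 changed sign and 2 passed newly. The cause of the changes was not tested.

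For TEKI minus WT the 1 gene called became 2 with median scaling, array weights or no filter on dim probes, 5 with quantile normalization, and 0 with normexp background correction, with only probes above background on all arrays, with slide as a fixed block or within slide 3. It was 1 to 93 with a replicate left out (93 without TEKI replicate 2, 17 without WT replicate 5, 3 without TEKI replicate 1, 4 without TEKI replicate 3) and 4 without TEKI replicate 1 and WT replicate 1. For TAKI minus WT the 575 calls became 999 with median scaling, 880 with quantile normalization, 1016 without scaling, 254 with probes above background on all arrays, 2252 with array weights, 1333 with only the 2 groups compared, 295 to 1312 with a replicate left out (lowest without TAKI replicate 5, highest without TEKI replicate 1, 348 without WT replicate 2, 353 without TAKI replicate 3, 375 without TAKI replicate 4) and 1197 without TEKI replicate 1 and WT replicate 1. For TEKI minus TAKI the 704 calls became 1122 with quantile normalization, 4186 with normexp, 296 with probes above background on all arrays, and 408 (without TEKI replicate 3) to 1099 (without TEKI replicate 1) with a replicate left out. Calls split 383 higher to 192 lower in TAKI minus WT, but 579 to 420 with median scaling and 167 to 484 with normexp; in TEKI minus TAKI they split 505 to 199, but 490 to 632 with quantile normalization and 4016 to 170 with normexp.

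Median scaling shifted all genes (TEKI minus WT -0.36, TAKI minus WT -0.15, TEKI minus TAKI -0.21), and without scaling the shift was 0.22 in TAKI minus WT and -0.21 in TEKI minus TAKI. Median differences in TEKI minus WT were -0.72 for all members, -0.72 for the ATF6/XBP1 arm and -0.57 for the ATF4/CHOP arm with median scaling, 0.053 and 0.44 for all members and the ATF4/CHOP arm with slide as a fixed block or within slide 3, and -0.048 and -0.022 for all members and the ATF6/XBP1 arm without TEKI replicate 1 and WT replicate 1. In TAKI minus WT they were 0.041 and 0.0057 for all members and the ATF6/XBP1 arm without scaling. In TEKI minus TAKI they were -0.40 for both with median scaling and -0.40 without scaling, and 0.0015 and 0.054 without TEKI replicate 1 (with or without WT replicate 1), with ranges of -0.22 to 0.0015 and -0.28 to 0.054 over all replicates left out. The ATF4/CHOP median of 0.02 became -0.26 with median scaling, -0.00060 with quantile normalization, -0.045 with normexp and -0.25 without scaling, and ranged over -0.098 (without TEKI replicate 2) to 0.12 (without TEKI replicate 3), also turning without TAKI replicates 1, 3 and 4 (-0.019, -0.042 and -0.031).

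Among single members, TEKI minus WT turned for Xbp1 (0.021 with array weights, 0.054 without TEKI replicate 1 and WT replicate 1) and Ddit3 (0.51 with slide as a fixed block or within slide 3). TAKI minus WT turned without scaling for Derl1 (0.041), P4hb (0.0057), Hsp90b1 (0.0035), Atf4 (0.078) and Hspa5 (0.19), with median scaling for Xbp1 (-0.040), and for Hspa5 also with quantile normalization (0.030), normexp (0.0048) and without WT replicate 1 (0.070, alone or with TEKI replicate 1), 2 (0.033) or 4 (0.0063) or TAKI replicate 1 (0.0043), within -0.12 to 0.070 over all replicates left out. With the replicate block, 343 genes were called in TAKI minus WT, 1 in TEKI minus WT and 599 in TEKI minus TAKI, the ATF4/CHOP median of TEKI minus TAKI was -0.038, and no member was called.

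Limits: 3 TEKI livers, 1 of them on an array with more spots above background than the rest, TAKI on slides of its own, 1 probe for most members, no measure of splicing, cleavage or phosphorylation, and no group on another diet.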
